A study of Mus musculus with 4 samples.

Results

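Type 2 innate lymphoid cells (ILC2) were identified in 4 single-cell libraries of mouse lung immune cells by their transcripts. A barcode was taken as ILC2 when it held at least 1 UMI (unique molecular identifier, a count of captured mRNA molecules) of Gata3 and at least 1 UMI of 2 or more of the 7 effector genes Il1rl1, Rora, Areg, Il5, Il13, Arg1 and Calca. It could hold no UMI of Cd3e, Cd3d or Cd4 (T cells), Cd79a (B cells) or Mcpt8 (basophils). The gate held 217 of 27544 cells, after 28805 barcodes had been reduced to those with more than 200 genes and under 15% mitochondrial UMIs. Because the cells were chosen by measured UMIs of these genes, the levels of the gate genes are given as a description with no test.

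ILC2 are tissue-resident lymphocytes without a rearranged antigen receptor. They depend on the transcription factors GATA3 and RORα, and respond within hours to the epithelial alarmins IL-33, IL-25 and TSLP. In the airway they are a source of IL-5, which recruits and sustains eosinophils, of IL-13, which drives mucus production, and of amphiregulin (Areg), which acts on epithelial repair. Papain is a cysteine protease that damages airway epithelium and releases IL-33.

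All mice were C57BL/6 males of 5 to 10 weeks, and carried Ift20 f/f alleles. WT mice had no Cre, and KO mice carried the CD4 cre transgene, which deletes Ift20 in cells that have expressed Cd4 and so in T cells that pass through the thymus. Papain (25 μg, intranasal) was given on 3 consecutive days and again on day 14, with the lungs taken on day 15, and the comparison groups were labelled DPBS (Dulbecco's phosphate-buffered saline). Live (7-AAD-negative) CD45.2-positive cells were sorted without any enrichment for ILC2, and the schedule of the DPBS mice was not described further. Each of the 4 groups was 1 library, and the number of mice in a library was not given in the sources used here. No contrast between a pair of groups could therefore be tested on its own, and no test was run between libraries. Values between libraries are given with exact 95% intervals that cover counting error only, and genotype or treatment cannot be told apart from the library.

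ILC2 were a rare population in every library. Wherever 4 values are given without names they run WT then KO for DPBS, followed by WT then KO for papain. There were 55, 37, 66 and 59 ILC2. As shares of the cells kept, these were 0.675% (0.509 to 0.878), 0.649% (0.457 to 0.893), 0.826% (0.639 to 1.05) and 1.03% (0.789 to 1.33). The share in KO relative to WT was −0.06 (−0.70 to 0.57) on the log2 scale in DPBS and 0.33 (−0.21 to 0.85) in papain. The share in papain relative to DPBS was 0.29 (−0.25 to 0.83) in WT and 0.67 (0.06 to 1.31) in KO, so only the last interval left out 0. With every cell thinned to 3000 UMIs before gating the shares were 0.507%, 0.538%, 0.759% and 0.860%, which put DPBS KO above DPBS WT in place of below it and left the papain libraries in their order. The libraries held 53854420 to 75675956 UMIs in all, and the median ILC2 held 4966, 6075, 6317.5 and 5828 UMIs. Summed over ILC2 this gave 296010, 267433, 556566 and 383791 UMIs, on which every CPM (UMIs of a gene per 1000000 UMIs of the gated cells) rests. A count of 0 allowed up to 3 UMIs, or 10.1, 11.2, 5.39 and 7.82 CPM. No ILC2 barcode occurred in another library, and each pair of libraries shared 7 to 16 barcodes.

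The label of the cells was checked against their markers. Of 19 ILC2 markers 8 were genes of the gate, and of the 11 others 10 to 11 had a UMI in each library. The IL-7 receptor Il7r, which the gate did not use, was found in 89.1%, 91.9%, 92.4% and 96.6% of ILC2, and Id2, the transcriptional repressor that all innate lymphoid cells require, in 90.9%, 100%, 97.0% and 91.5%. Cd8a, Cd5, Foxp3, Ncr1, Gata2 and Ms4a2 were at 0 in all libraries, and 0 to 2 of 10 NK or ILC1 markers had a UMI, with a summed level of 0 to 10.1 CPM. Trac was low, with 3 to 7 UMIs per library. Other T cell transcripts were present: Trbc2 had 429, 366, 397 and 461 CPM, and Cd3g had 250, 198, 228 and 201 CPM. Of 11 T cell markers outside the gate 7 to 8 had a UMI, and the class summed to 1028 to 1243 CPM. Of 7 γδ T cell markers 3 to 5 had a UMI (115 to 180 CPM summed). Of 8 B cell markers outside the gate 5 to 7 had a UMI (142 to 250 CPM summed). Of 9 basophil or mast cell markers outside the gate 1 to 2 had a UMI (5.21 to 16.9 CPM summed), and of 5 ILC3 markers 0 to 3 (0 to 18.7 CPM). Of 4 regulatory T cell markers 1 to 2 had a UMI, with 3.38, 15.0, 183 and 54.7 CPM summed. Dendritic cell markers summed to 26.2 to 108 CPM and lung structural markers to 16.2 to 59.8 CPM. Cd3g UMIs were in 38.2%, 29.7%, 45.5% and 32.2% of ILC2 against 1.64% to 2.28% of B cells, which should lack it (median 4027 to 4982 UMIs). The neuromedin U receptor Nmur1 had 1, 1, 2 and 0 UMIs and the prostaglandin D2 receptor Ptgdr2 none, so neither was measurable at this depth.

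The threshold of the gate lay in a sparse stretch. Over the 4 libraries 97 barcodes met the Gata3 and exclusion criteria with no effector gene, 65 had 1, 38 had 2, 62 had 3, 63 had 4, 36 had 5, 13 had 6 and 5 had all 7. In barcodes just outside the gate, with exactly 1 effector gene, Il7r was found in 21.7%, 21.4%, 43.8% and 16.7% of cells. In those just inside it, with exactly 2, the shares were 94.4%, 85.7%, 71.4% and 100%. The IL-2 receptor α chain Il2ra was in 4.35%, 14.3%, 25.0% and 16.7% of the former and in 72.2%, 71.4%, 57.1% and 50% of the latter.

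A few gated barcodes also held transcripts of other cells. Lyz2, Chil3, Ear2, S100a8 and S100a9, which mark macrophages, monocytes and neutrophils, together gave 60 or more UMIs in 11 ILC2 barcodes (2, 2, 6 and 1 per library) and at most 6 in all others. These 11 barcodes had median totals of 22486, 30704.5, 17313 and 12281 UMIs, against 4931, 5904, 5784.5 and 5765 in the rest. Without them the summed level of 12 macrophage or monocyte markers went from 2318, 6084, 6997 and 683 CPM to 657, 612, 506 and 495 CPM, and that of 6 neutrophil markers from 2000 CPM in Papain WT to 26.3 CPM. Values without these 11 barcodes are given below for named genes that then fell under 2-fold, changed a call or turned direction. Not every such case is given. A stricter gate, with no UMI of Cd3g, Cd8a, Cd8b1, Trac, Lyz2, Ms4a1, Cpa3 or Ncr1 either, left 13, 10, 15 and 19 ILC2, and directions that it turned are given beside the results. Lyz2 UMIs were also in 41.9% to 53.0% of B cells, so a single Lyz2 UMI does not set a myeloid cell apart. The ratios of this gate rest on few cells and are given without intervals, and whether its cells are purer ILC2 was not tested.

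**Figure D1:**
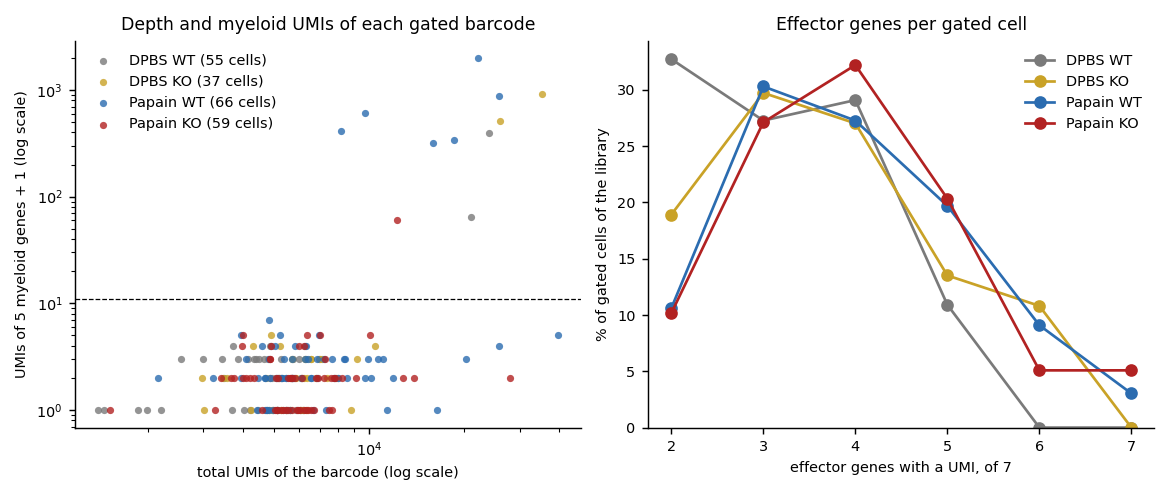
Left, total UMIs of each of the 217 ILC2 barcodes (x axis, log scale) against its UMIs of 5 myeloid genes plus 1 (y axis, log scale), coloured by library, with a dashed line at 10 UMIs. Right, percentage of the ILC2 of each library with 2 to 7 of the 7 effector genes. The 11 barcodes above the line lie apart from the other 206, and most ILC2 held 3 or 4 effector genes.

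Gata3 and the 2 other identity genes of the gate differed by less than 2-fold between libraries. Gata3 was at 659 (95% interval 570 to 758), 673 (578 to 779), 586 (524 to 653) and 753 (669 to 845) CPM. The IL-33 receptor Il1rl1 was at 361 (296 to 437), 374 (304 to 455), 465 (410 to 526) and 341 (285 to 405) CPM, and Rora at 682, 819, 658 and 803 CPM. The largest of the 12 log2 ratios between libraries of these genes was that of Il1rl1 for KO against WT in papain (−0.45, −0.76 to −0.14), where Gata3 had 0.36 (0.13 to 0.60) and Rora 0.29 (0.06 to 0.51). Without the 11 barcodes Il1rl1 had −0.66 (−0.98 to −0.35) there, with 0.49 for papain against DPBS in WT and −0.45 in KO, while the intervals of Gata3 (0.16) and Rora (0.14) in papain held 0. Under the stricter gate Il1rl1 turned to −0.27 for papain against DPBS in WT. The effector genes of the gate varied far more, each with a pattern of its own.

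Areg was lowest in DPBS WT and highest in Papain KO. Its levels were 453 (379 to 536), 808 (704 to 923), 994 (912 to 1080) and 1959 (1822 to 2105) CPM, and only the intervals of DPBS KO and Papain WT overlapped. The log2 ratios were 0.84 (0.52 to 1.16) for KO against WT in DPBS, 0.98 (0.82 to 1.14) for KO against WT in papain, and 1.13 (0.86 to 1.42) and 1.28 (1.06 to 1.50) for papain against DPBS in WT and KO. The last of these turned to −0.91 under the stricter gate. The level rested on few cells: 1 Papain KO cell held 382 of the 752 Areg UMIs of that library and 1 Papain WT cell 186 of 553. In cells thinned to 2000 UMIs the share with an Areg UMI was 27.6%, 36.4%, 37.7% and 44.4% (30.9%, 51.4%, 53.0% and 55.9% unthinned), against 1.28% to 2.14% of B cells.

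Arg1, arginase 1, which supports ILC2 metabolism by degrading arginine, was highest in Papain WT and lower in KO under both treatments. Its levels were 392 (324 to 470), 217 (165 to 280), 1107 (1021 to 1198) and 412 (350 to 481) CPM. On the log2 scale the KO level stood at −0.85 (−1.33 to −0.39) against WT after DPBS, and at −1.43 (−1.69 to −1.17) after papain, and papain against DPBS 1.50 (1.21 to 1.80) in WT and 0.92 (0.48 to 1.38) in KO, the last of which was −0.09 under the stricter gate. The thinned shares of cells followed the same order as the level between genotypes, at 50.3%, 37.8%, 63.4% and 38.6% (72.7%, 70.3%, 86.4% and 66.1% unthinned), with 0 to 0.546% of B cells.

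Calca, which encodes the neuropeptide CGRP, had the opposite pattern, being lowest in Papain WT. It was at 449 (376 to 532), 785 (683 to 899), 189 (154 to 228) and 852 (762 to 950) CPM. Papain KO stood 2.18 (1.85 to 2.51) above Papain WT on the log2 scale and DPBS KO 0.81 (0.49 to 1.13) above DPBS WT. Papain WT stood 1.25 below DPBS WT (−1.25, −1.64 to −0.87), while Papain KO and DPBS KO had overlapping intervals (0.12, −0.14 to 0.37). Thinned shares were 27.8%, 30.7%, 15.2% and 41.9% (32.7%, 32.4%, 21.2% and 52.5% unthinned), with 0.238% to 0.729% of B cells.

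**Figure D2:**
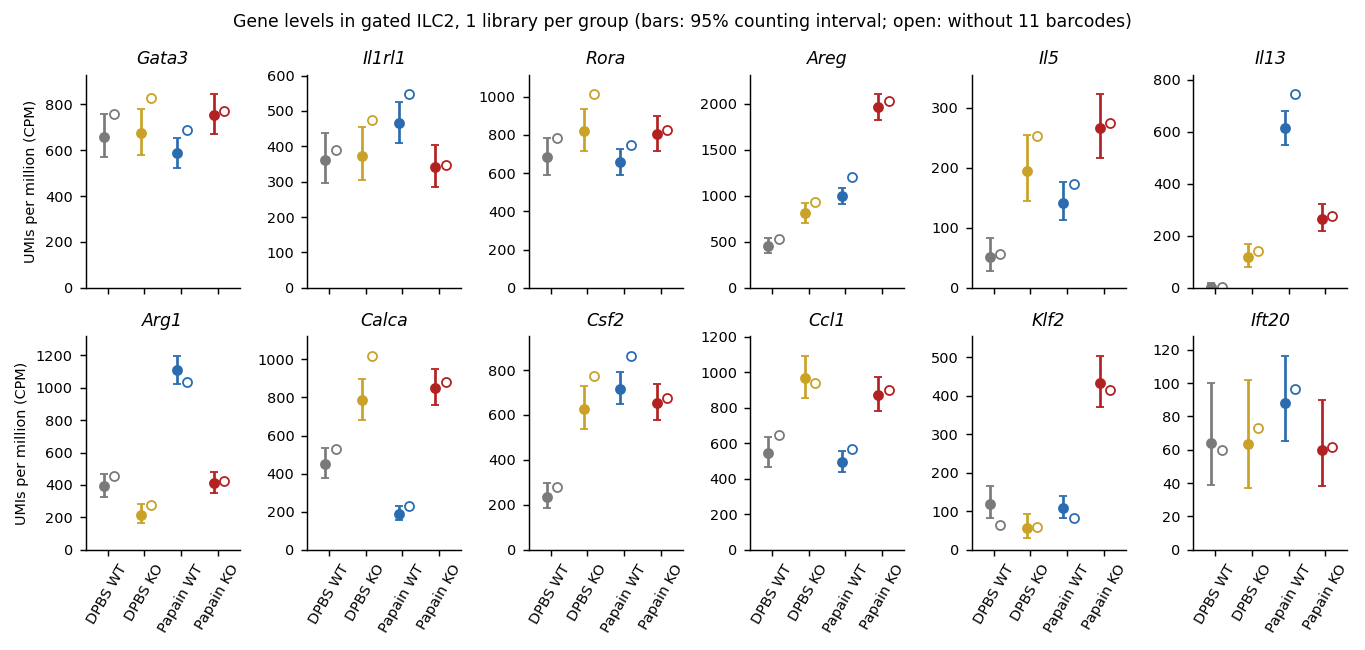
Level of 12 genes in ILC2 of each library in CPM of summed UMIs (y axis, from 0), with exact 95% counting intervals as bars and open points for the level without the 11 barcodes rich in myeloid UMIs. Gata3, Il1rl1 and Rora differ by less than 2-fold between libraries, whereas Arg1 is highest in Papain WT (1107 CPM) and Calca lowest there (189 CPM).

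Il5 and Il13 were found in few ILC2. Il5 UMIs were in 5 of 55, 7 of 37, 17 of 66 and 9 of 59 cells, and Il13 UMIs in 1, 5, 18 and 13 cells. Il5 gave 15, 52, 79 and 102 UMIs, or 50.7 (28.4 to 83.6), 194 (145 to 255), 142 (112 to 177) and 266 (217 to 323) CPM. Single cells held much of this: 40 of the 52 UMIs in DPBS KO and 72 of the 102 in Papain KO. Leaving out the cell with the most Il5 UMIs in each library turned the ratio of Papain KO to Papain WT (log2) from 0.90 (0.47 to 1.35) to −0.36, so the level of Il5 had no stable order between these 2 libraries.

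Il13 had 1, 32, 341 and 102 UMIs, or 3.38 (0.0855 to 18.8), 120 (81.8 to 169), 613 (549 to 681) and 266 (217 to 323) CPM. In papain, KO was below WT, with a log2 ratio of −1.21 (−1.54 to −0.88). The level rested on few deep cells, since single Papain WT cells held 120, 57, 55, 46 and 27 of the 341 UMIs. These barcodes had 39770, 20245, 11935, 11087 and 10135 UMIs in all, and all but the first also held Cd3g UMIs. In Papain KO the largest counts in 1 cell were 32 and 21 of 102 UMIs. Papain against DPBS was 7.50 (5.01 to 12.81) in WT and 1.15 (0.57 to 1.77) in KO, and KO against WT in DPBS was 5.15 (2.56 to 10.49). The ratios that involve DPBS WT rest on 1 UMI there and on the Cd79a criterion of the gate. A DPBS WT barcode with 10843 UMIs, 8 UMIs of Gata3 and all 7 effector genes was left out because it held 16 UMIs of Cd79a. It carried 84 of the 112 Il13 UMIs, 44 of the 73 Il5 UMIs and 31 of the 254 Ccl1 UMIs of that library. When Cd79a UMIs were allowed, 5, 2, 4 and 5 cells joined the gate, and Il13 in DPBS WT went to 86 UMIs (249 CPM) and Il5 to 69 UMIs (200 CPM). Il13 was then −1.11 (−1.74 to −0.51) in KO against WT in DPBS and 1.24 (0.90 to 1.59) in papain against DPBS in WT. Il5 was then −0.07 (−0.61 to 0.47) and −0.63 (−1.11 to −0.14). The level of both cytokines in DPBS WT thus rested on whether 1 barcode was counted. The ratio of Il13 in Papain KO to Papain WT was −1.28 (−1.61 to −0.96) with these cells, but it turned to 1.50 under the stricter gate. The ratio of Papain KO to DPBS KO then turned to −0.48.

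Il5 and Il13 lie close together in the type 2 cytokine locus on mouse chromosome 11, where GATA3 binds. In the GRCm38 annotation Il13 spans chr11:53631324-53634702 (minus strand) and Il5 chr11:53720794-53725106 (plus strand), 86091 bases apart, with Il4 12654 bases from Il13. Csf2, which encodes GM-CSF, lies 522164 bases beyond Il5 at chr11:54247271-54249667 (minus strand), next to Il3. Their promoters are shown because Il5 and Il13 are the gate genes of this locus, Csf2 is a cytokine gene near them that ILC2 transcribed, and GATA3 was the gene every cell of the gate had to hold. The windows run from 250 bases before to 50 after the RefSeq start (GRCm38.p6), 5′ to 3′ on the gene's strand, at chr11:53720544-53720843 (plus) for Il5, chr11:53634653-53634952 (minus) for Il13 and chr11:54249850-54250149 (minus) for Csf2. The Csf2 window lies wholly upstream of the annotated Csf2 span given above and holds no base of it. The RefSeq start used for Csf2 thus differs from the start of the gene in that annotation. Capitals mark a GATA motif on either strand, spelled AGATAA or with a final G as AGATAG, or with T as the first letter, TGATAA or with both changes TGATAG.
Il5: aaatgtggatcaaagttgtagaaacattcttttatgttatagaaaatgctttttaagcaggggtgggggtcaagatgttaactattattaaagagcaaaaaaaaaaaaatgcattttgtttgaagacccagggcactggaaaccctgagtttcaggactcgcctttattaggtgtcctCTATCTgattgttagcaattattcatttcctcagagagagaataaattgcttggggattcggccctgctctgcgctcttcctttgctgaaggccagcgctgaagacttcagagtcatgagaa
Il13: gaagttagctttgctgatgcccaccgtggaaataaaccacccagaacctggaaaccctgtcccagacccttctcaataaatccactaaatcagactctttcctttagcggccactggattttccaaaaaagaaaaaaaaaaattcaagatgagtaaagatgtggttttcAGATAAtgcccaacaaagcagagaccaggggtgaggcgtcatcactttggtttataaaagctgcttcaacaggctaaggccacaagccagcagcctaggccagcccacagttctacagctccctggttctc
Csf2: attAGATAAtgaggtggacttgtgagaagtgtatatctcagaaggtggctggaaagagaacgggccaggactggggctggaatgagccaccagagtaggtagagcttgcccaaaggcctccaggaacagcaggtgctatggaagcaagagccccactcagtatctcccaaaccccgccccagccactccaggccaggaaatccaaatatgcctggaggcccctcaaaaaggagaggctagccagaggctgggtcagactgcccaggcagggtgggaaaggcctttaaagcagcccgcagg
Each window held 1 motif, starting 72 bases before the RefSeq start in Il5 (AGATAG on the opposite strand), 81 bases before it in Il13 and 247 bases before it in Csf2. Of 32851 RefSeq promoter windows of this length 29.76% held at least 1 of these 4 spellings, so a match is a description of the letters only. The Areg window held none.

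The 2 cytokines were partly found in the same cells. Of the 59 ILC2 with a UMI of either, 16 held both (0, 2, 9 and 5 per library). Csf2 was in 39 of these 59 cells (66.1%) and in 66 of the 158 others (41.8%), and Areg in 69.5% against 39.9%. Calca was in 45.8% against 30.4%, while Arg1 was in 71.2% against 75.9%. By library the Calca shares were 33.3% against 32.7%, 50% against 25.9%, 23.1% against 20% and 82.4% against 40.5%. Those of Arg1 were 66.7% against 73.5%, 70% against 70.4%, 92.3% against 82.5% and 41.2% against 76.2%, so the pooled shares hid opposite directions. Areg, Calca and Arg1 are genes of the gate, and cells without Il5 and Il13 had to enter it through the other effector genes. The shares of these genes are thus shaped in part by the rule and are a description only. The cells with an Il5 or Il13 UMI were deeper (median 6420 against 5295.5 UMIs), and the part of depth in these shares was not tested. Il4 had only 5, 4, 12 and 3 UMIs, and Il9, Il3, Il22 and Ifng none.

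Where the libraries' Il5 and Il13 transcripts lay differed too. ILC2 held 97.0% of the Il13 UMIs of DPBS KO and 84.3% of those of Papain KO, but 46.0% in Papain WT and 0.893% in DPBS WT. For Il5 these were 92.9% in DPBS KO, 90.3% in Papain KO, 37.8% in Papain WT and 20.5% in DPBS WT. The DPBS WT shares rest on the Cd79a criterion of the gate. The barcode that it left out held 84 of the 112 Il13 UMIs and 44 of the 73 Il5 UMIs of that library. With Cd79a UMIs allowed the gate held 86 Il13 and 69 Il5 UMIs in DPBS WT. In Papain WT, CD4 T cells that met the same Gata3 and effector gene criteria (type 2 gated CD4 T) held 207 Il13 and 84 Il5 UMIs, against 2 and 0 in Papain KO. These T cells numbered 31, 15, 159 and 26, so KO and WT differed after papain in the number of these cells as well. For Calca, 63.3%, 69.1%, 28.4% and 66.5% of a library's UMIs were in ILC2.

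**Figure D3:**
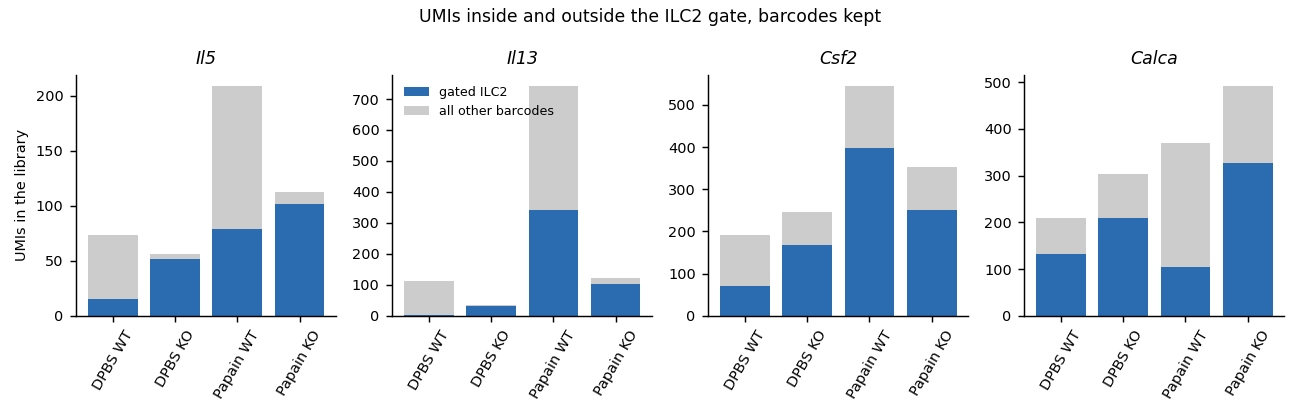
UMIs of Il5, Il13, Csf2 and Calca in each library (y axis), stacked by whether the barcode was inside or outside the ILC2 gate. Most Il5 and Il13 UMIs of both KO libraries were inside the gate, while in Papain WT 79 of 209 Il5 UMIs and 341 of 742 Il13 UMIs were.

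Ift20, the gene deleted by CD4 cre, had 19, 17, 49 and 23 UMIs in ILC2, and both KO to WT intervals held 0. It had 64.2 (38.6 to 100), 63.6 (37.0 to 102), 88.0 (65.1 to 116) and 59.9 (38.0 to 89.9) CPM. KO stood at −0.01 (−1.05 to 1.01) relative to WT on the log2 scale with DPBS, and at −0.55 (−1.34 to 0.19) after papain. In type 2 gated CD4 T cells the same ratios were −1.39 (−3.09 to −0.04) and −2.91 (−4.55 to −1.66), and in other effector CD4 T cells (Cd44-positive and outside the type 2 gate, with a further criterion that is not reported) −1.32 (−2.33 to −0.45) and −1.35 (−2.08 to −0.70). The type 2 gated ratios rest on 5 UMIs in each KO library. NK cells had −0.28 (−0.95 to 0.34) and 0.28 (−0.41 to 0.98), and B cells −0.48 (−0.70 to −0.26) and 0.32 (0.16 to 0.48). Ift20 was thus below WT in both CD4 sets of KO, with intervals that left out 0. Both B cell intervals left out 0 as well, in opposite directions in DPBS and papain, so such intervals were not particular to the CD4 sets. In ILC2 and NK cells the intervals held 0, and they were too wide to show equal levels. Under both treatments the ILC2 interval overlapped that of other effector CD4 T cells. Recombination of the floxed allele takes out exons 2 and 3, whereas 3′ libraries count the end of a transcript, so UMIs left in KO cells are no measure of how complete the deletion was.

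Whether ILC2 transcripts differed in mice with a T cell deletion of Ift20, and after papain, was examined over all genes, beginning with KO and WT in DPBS. Of 1475 genes with at least 50 UMIs in these 2 libraries, 60 were 2-fold or more higher in KO (4.07%) and 20 lower (1.36%). The total of 80 fell to 29 without the 11 barcodes and to 15 under the stricter gate. Values in brackets after a pair of CPM levels are log2 ratios, with their interval where 3 numbers are given. Csf2 was higher in DPBS KO, at 628 against 236 CPM (1.41, 1.00 to 1.83), and 1 DPBS KO cell held 53 of its 168 UMIs. Tnfsf11, the osteoclast ligand RANKL, was lower at 74.8 against 162 CPM (−1.12, −1.95 to −0.34). The leukotriene B4 receptor Ltb4r1 was lower at 108 against 240 CPM (−1.15, −1.82 to −0.50). Of the other named genes, the MAP kinase phosphatase Dusp5 (452 against 172 CPM, 1.39), the lipid droplet protein Hilpda (1025 against 453 CPM, 1.18), Spry2, an inhibitor of receptor tyrosine kinase signalling (213 against 70.9 CPM, 1.59), and the histone demethylase Kdm6b (348 against 152 CPM, 1.19) were higher in KO, with Evl, G3bp1, Kctd12 and the glucocorticoid receptor Nr3c1. Arid5b (37.4 against 155 CPM, −2.06), Trip11 (44.9 against 132 CPM, −1.55) and the histone methyltransferase Kmt2a (59.8 against 152 CPM, −1.35) were lower, with Cdc42ep3, Gimap6, Dnajb1 and Krcc1. Without the 11 barcodes Ltb4r1 (−0.93), Cdc42ep3 (−0.83), Gimap6 (−0.995) and Dnajb1 (−0.81) were under 2-fold, and the stricter gate turned Cdc42ep3 to 0.37 and Dnajb1 to 1.17.

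After papain, more of the measured genes were lower in KO. Of 2518 genes, 44 were 2-fold or more higher in Papain KO than in Papain WT (1.75%) and 153 lower (6.08%). The total of 197 fell to 92 without the 11 barcodes and to 38 under the stricter gate. Beside Calca, the linker histone gene Hist1h1c was at 373 against 70.1 CPM (2.41, 1.89 to 2.96), the MAP kinase phosphatase Dusp10 at 164 against 41.3 CPM (1.99), the LIM-domain protein Lmo4 at 1001 against 361 CPM (1.47, 1.22 to 1.72), Hilpda at 1415 against 566 CPM (1.32) and the Ikaros family factor Ikzf3 at 253 against 93.4 CPM (1.44). H3f3b and Eprs were also higher. Of the genes lower in Papain KO, the membrane-binding Anxa2 was at 83.4 against 429 CPM (−2.36, −2.94 to −1.83), the actin-capping Capg at 125 against 489 CPM (−1.97), galectin-1 (Lgals1) at 388 against 1078 CPM (−1.47, −1.74 to −1.21), the LFA-1 integrin chain Itgal at 44.3 against 172 CPM (−1.96), and the LIM protein Crip1 at 664 against 1761 CPM (−1.41, −1.61 to −1.21). Dst, Ctsc and the class II loading factor H2-DMa were lower as well. All of the 16 named genes were still 2-fold apart without the 11 barcodes, 6 of which were in Papain WT. Ctsc then had −1.06 in place of −2.13 and Anxa2 −1.58 in place of −2.36.

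The activated surface genes Ctla4 and Tnfrsf4 (OX40) had most of their UMIs in Papain WT. Ctla4 had 1, 1, 102 and 19 UMIs, but was found in a like share of Papain WT (7 cells, 10.6%) and Papain KO (6 cells, 10.2%). A pair of Papain WT cells held 46 and 39 of the UMIs, and 1 Papain KO cell held 13. Tnfrsf4 had 1, 1, 45 and 2 UMIs, in 15.2% of Papain WT and 1.69% of Papain KO cells. KO against WT in papain was −1.89 (−2.68 to −1.17) for Ctla4 and −3.96 (−7.04 to −2.02) for Tnfrsf4. Klf2, a factor that keeps lymphocytes quiescent and able to leave tissue, was at 118, 56.1, 108 and 432 CPM, and 1 Papain KO cell held 71 of its 166 UMIs there. Its ratio of DPBS KO to DPBS WT (−1.08) turned to 1.21 under the stricter gate. It was also found in 96.8% to 98.2% of B cells.

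Papain against DPBS in WT gave more genes higher than lower. Of 2350 genes, 130 were 2-fold or more higher in Papain WT (5.53%) and 19 lower (0.809%). The total of 149 fell to 92 without the 11 barcodes and to 24 under the stricter gate. The anti-apoptotic Bcl2a1b, whose reads can be split with near-identical paralogs, was at 158 against 13.5 CPM (3.55, 2.14 to 5.46) and the endocytic recycling gene Ehd1 at 106 against 13.5 CPM (2.97). The kinase Plk3 (122 against 27.0 CPM, 2.18), Capg (489 against 179 CPM, 1.45), Crip1 (1761 against 774 CPM, 1.19), Dst (82.7 against 16.9 CPM, 2.29) and thioredoxin Txn1 (609 against 247 CPM, 1.30) were higher too, and the LIF cytokine gene Lif was at 89.8 against 13.5 CPM (2.73, 1.29 to 4.66). Csf2 was at 717 against 236 CPM (1.60, 1.23 to 1.99), with 118 of its 399 UMIs in 1 cell. The stricter gate turned Csf2 to −1.77 and Plk3 to −0.85. The chemokine Cxcl2 was at 1405 against 351 CPM (2.0, 1.70 to 2.31), and at 1.23 without the 11 barcodes. B cells held Cxcl2 too, at 277 CPM in Papain WT and 278 CPM in DPBS WT, the latter near the ILC2 level there. Lower in Papain WT were the amino acid transporter Slc38a2 (138 against 314 CPM, −1.18), Lmo4 (361 against 726 CPM, −1.01) and Arid5b (64.7 against 155 CPM, −1.26), with Tmem176b, Csnk1g2, Nudcd3 and Rnf4, of which Tmem176b (−0.85) and Rnf4 (−0.99) were under 2-fold without the 11 barcodes.

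In KO, papain against DPBS gave fewer genes higher than lower. Of 1688 genes, 24 were 2-fold or more higher in Papain KO than in DPBS KO (1.42%) and 80 lower (4.74%). The total of 104 fell to 31 without the 11 barcodes and to 31 under the stricter gate. Hist1h1c (373 against 78.5 CPM, 2.25), the heat shock gene Hspa1b (310 against 108 CPM, 1.52, reads shared in part with Hspa1a), Lztfl1, a regulator of ciliary trafficking (276 against 105 CPM, 1.40), Plac8, Arid4a and Tnfsf11 (175 against 74.8 CPM, 1.22) were higher, as were Jun and Ltb4r1. Lif was again higher, at 73.0 against 15.0 CPM (2.29, 0.77 to 4.26). Lower were Capg (125 against 307 CPM, −1.29), Bnip3l, Ubl3, Hexim1, BC005537, Pcmt1, Nfil3, the factor needed for innate lymphoid development (59.9 against 131 CPM, −1.13), and Ddx17. The 11 barcodes bore on this comparison most: 6 of the 16 named genes were under 2-fold without them. These were Jun (0.82), Ltb4r1 (0.82), Bnip3l (−0.75), Ubl3 (−0.65), Pcmt1 (−0.85) and Ddx17 (−0.91), and Capg was at −1.02. The stricter gate turned Capg to 0.55, Ddx17 to 0.68 and Plac8 to −0.06. The difference between the 2 genotypes' papain ratios was not tested.

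**Figure D4:**
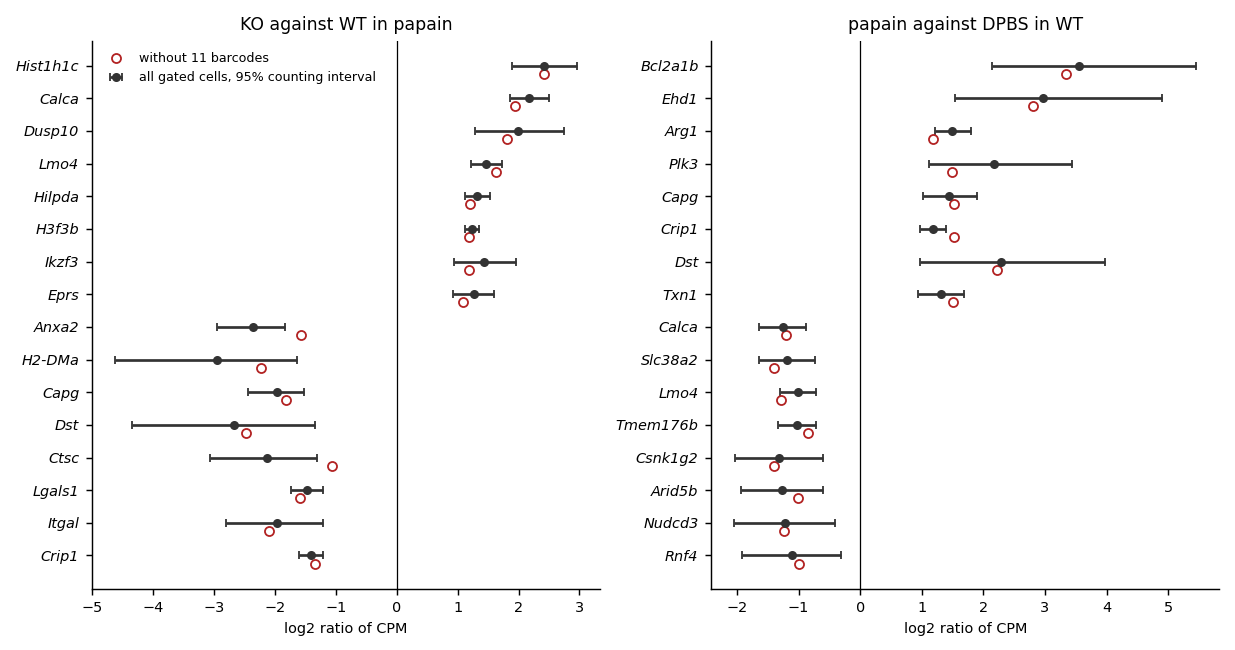
Log2 ratios (x axis) of the 16 named genes for KO against WT in papain and of the 16 for papain against DPBS in WT, with exact 95% counting intervals, and open red points without the 11 barcodes rich in myeloid UMIs. The ratios of Papain KO to Papain WT range from −2.95 (H2-DMa) to 2.41 (Hist1h1c).

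The pathway lists were counted for members past 2-fold between libraries. These counts, here and in the next paragraph, are to be read beside the shares over all measured genes. For KO against WT those shares were 4.07% higher and 1.36% lower in DPBS, and 1.75% and 6.08% in papain. For papain against DPBS they were 5.53% and 0.809% in WT, and 1.42% and 4.74% in KO. Of 18 alarmin and cytokine receptors, 13 were measured in papain and none differed by 2-fold between KO and WT. Il7r was at 800 against 510 CPM in Papain KO and WT (0.65, 0.41 to 0.89). Of 14 measured NF-κB and cytokine signal feedback genes 1 was higher, and of 17 measured immediate early and stress genes none was past 2-fold with all barcodes and 3 were higher without the 11 (median 0.43). Fos was at 1321 against 667 CPM (0.99, 0.79 to 1.18), and 1.26 without the 11 barcodes. The medians of these 3 lists were 0.14, 0.24 and 0.23 beside −0.06 over all 2518 genes. Of the 5 measured receptors of neuropeptides and lipid mediators and their partners, 1 was higher (none without the 11 barcodes) and 1 lower, and Ramp1, which with Calcrl forms the CGRP receptor, was at 480, 557, 640 and 354 CPM across the libraries (KO against WT in papain −0.85, −1.15 to −0.56). Cell cycle genes were sparse: Mki67 UMIs were in 1, 1, 2 and 2 ILC2, and those of both DPBS libraries were in barcodes rich in myeloid UMIs.

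Of the other lists in papain, 16 transcription factors were measured and 2 were 2-fold or more higher and 2 lower in KO (median 0.09), 7 secreted factors gave none (−0.30), 4 chemokines 1 higher and 2 lower (−0.10), 12 surface genes 2 lower (−0.03), 8 homing genes 1 lower (−0.20), 9 metabolism genes 1 higher and 1 lower (0.17) and 4 cell cycle genes 1 higher (0.55). Without the 11 barcodes the chemokines gave 1 higher and none lower, transcription factors 2 higher and 1 lower, surface genes 1 lower, and metabolism and cell cycle genes none. In DPBS, KO against WT gave at most 1 member higher and at most 1 lower in each list, except that 3 of 17 immediate early and stress genes were lower (median −0.19), none of which was past 2-fold without the 11 barcodes, when 2 surface and 2 metabolism genes were higher. Papain against DPBS in WT gave 2 of 6 measured secreted factors higher (median 0.51), 2 of 3 chemokines (2.0), 2 of 9 metabolism genes (0.11) and at most 1 gene in any other list, beside a median of 0.05 over all genes. Of the chemokines and metabolism genes 1 each was higher without the 11 barcodes. In KO it gave at most 1 higher and 1 lower in a list, except that 2 of 17 immediate early and stress genes were higher (0.26) and 2 of 11 transcription factors lower (−0.09), which were 1 and none without the 11 barcodes.

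ILC2 were then compared with 3 other lymphocyte sets of the same libraries, which asks what distinguishes them from cells that share part of their program: 231 type 2 gated CD4 T cells, 389 other effector CD4 T cells and 296 NK cells. UMIs were summed per library and set, and edgeR's quasi-likelihood test was run with the library as a block, so n was 4 libraries that differ in genotype and treatment. Gate genes were left out. Of 6563 genes, 773 (11.8%) were higher and 782 (11.9%) lower in ILC2 than in type 2 gated CD4 T cells at an FDR of 0.05. Against other effector CD4 T cells these were 782 (11.9%) and 744 (11.3%), and against NK cells 824 (12.6%) and 717 (10.9%). There were 296 genes higher and 246 lower against all 3 sets with the same sign in each library. The type 2 gated CD4 T cells were deeper per cell, with medians of 15080, 11715, 10560 and 13446 UMIs, and the part of depth was not tested. This set also held the regulatory T cell gene Foxp3 (90.2, 183, 143 and 88.0 CPM) and had no Il5 or Il13 UMI in DPBS. The part of regulatory T cells in the differences was not tested.

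The genes highest in ILC2 over all 3 sets included Hs3st1, a heparan sulfate sulfotransferase, at 186, 299, 140 and 320 CPM in ILC2 (edgeR adjusted p = 1.7e-07, 4.0e-08 and 7.6e-08 against type 2 gated CD4 T, other effector CD4 T and NK). Over the 4 libraries it had 223 CPM against 2.22 and 0.472 CPM in the CD4 T sets and none in NK cells. Only 5.26% to 7.80% of a library's Hs3st1 UMIs were in ILC2, so it was higher there than in these 3 sets without being particular to ILC2 in the lung. Rnf128, an E3 ubiquitin ligase of T cell anergy, had 262 CPM against 8.62, 1.65 and 2.03 CPM. Ccdc184 had 253 CPM against 6.67, 0 and 1.53 CPM, and the phospholipid enzyme Lpcat2 179 CPM against 1.95, 4.01 and 6.61 CPM. Csf2 had 591 CPM against 17.2, 2.83 and 26.9 CPM (log2 difference 5.02, 7.62 and 4.58, adjusted p = 2.9e-05, 1.5e-06 and 2.8e-05 by edgeR), and Ccl1, the ligand of CCR8, 686 CPM against 95.4, 8.27 and 1.02 CPM. The amino acid transporter Slc7a8 had 160 CPM against 8.34, 2.60 and 2.03 CPM. The γδ T cell receptor constant gene Tcrg-C4 had 93.8 CPM against 0.834, 4.01 and 8.64 CPM, with reads that may be split between near-identical constant genes. Cntn1, Vipr2, Klf5, Olfr1259, Stab2, Stc2, Dach2, Slc6a13, Pard3, Prnp and Grin2d completed the 19 named genes, with 37.9 to 138 CPM in ILC2 over the 4 libraries.

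The 10 genes named as lower in ILC2 than in all 3 sets had 0 to 7 UMIs there. Gzmb (granzyme B) and Ifng (interferon-γ) had no UMI in 1503800 ILC2 UMIs, which allows up to 1.99 CPM. NK cells had 822 CPM of Gzmb and 280 CPM of Ifng, so these were at least 412-fold and 140-fold lower in ILC2. The chemokine receptor Cxcr3 was also at 0 in ILC2, against 66.5, 148 and 41.2 CPM in the 3 sets, at least 33.3-, 74.2- and 20.6-fold lower. Lamb3, Dtx1, Baiap3 and Pde2a were at 0 as well. Ms4a4b had 7 UMIs and 4.65 CPM in ILC2 against 316, 585 and 887 CPM, Sh2d1a (the adaptor SAP) 1.33 CPM against 115, 165 and 140 CPM, and Myb 0.665 CPM against 32.5, 39.7 and 82.4 CPM.

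**Figure D5:**
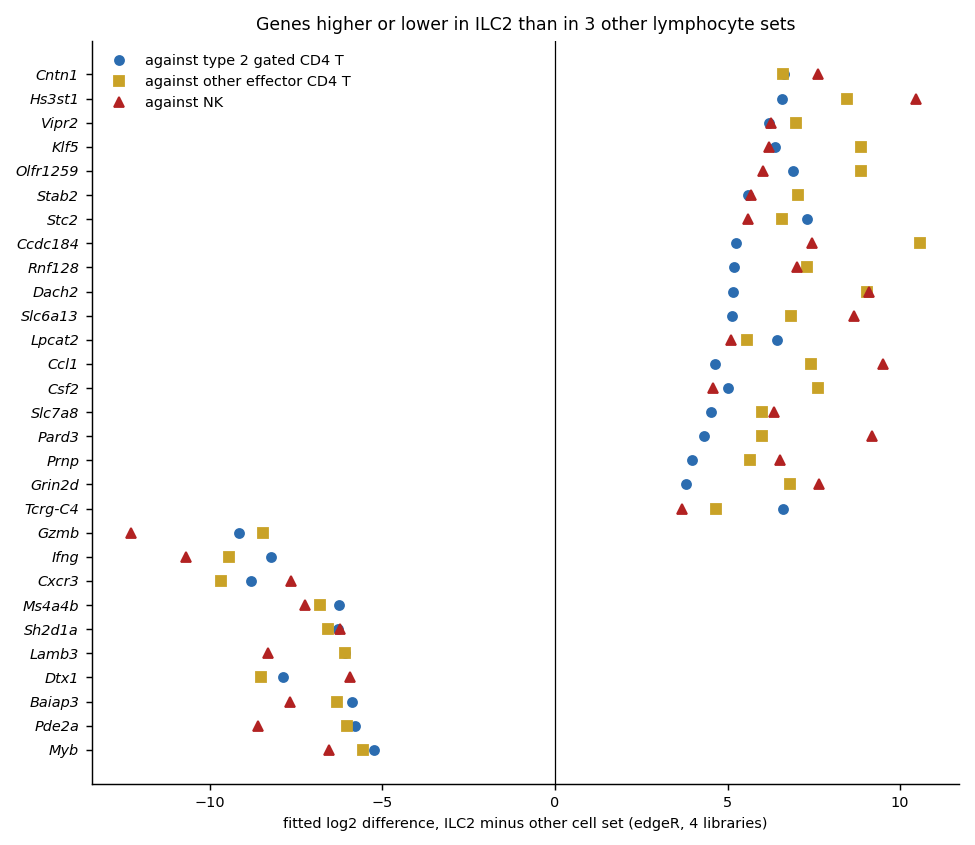
Fitted edgeR log2 differences (x axis) of ILC2 against type 2 gated CD4 T, other effector CD4 T and NK cells for the 19 named genes that were higher and the 10 that were lower against all 3. Fits of genes at 0 UMIs in a set depend on the prior count, and each of the 29 genes lies on the same side of 0 in the 3 comparisons by the rule that named it.

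Receptors that set what ILC2 respond to differed from the other sets in a common way. Of 17 alarmin and cytokine receptors tested, 7 were higher against each of the 3 sets, and 5, 5 and 4 lower. That is to be read beside the 11.8%, 11.9% and 12.6% of all genes called higher and the 11.9%, 11.3% and 10.9% called lower, as are the counts of the lists that follow. The 7 were the same each time. The IL-25 receptor Il17rb was 3.11, 4.52 and 6.95 higher on the log2 scale than in type 2 gated CD4 T, other effector CD4 T and NK cells (edgeR adjusted p = 0.00021, 8.8e-06 and 1.0e-05). Il9r was 2.40, 3.29 and 7.27 higher, Il7r 1.42, 1.21 and 4.13, Il2ra 1.18, 3.51 and 5.51, and the TL1A receptor Tnfrsf25 1.10, 1.65 and 6.37. Il2rb was lower (−1.38, −1.13 and −3.21), as were Il18r1 (−1.58, −1.95 and −2.82) and Ifngr1 (−1.05, −0.86 and −2.0). The TSLP receptor Crlf2 did not pass the test against any set with all barcodes (−0.03, 0.43 and 0.06; edgeR adjusted p = 0.95, 0.14 and 0.89), but did against other effector CD4 T cells without the 11 barcodes (0.55, edgeR adjusted p = 0.042). The list's medians were 0.13, 0.43 and 0.34, beside −0.00, −0.02 and −0.01 over all genes.

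Of 10 tested receptors and enzymes of neuropeptides and lipid mediators, 5, 5 and 6 were higher, and only Lta4h against NK cells was lower. Without the 11 barcodes these were 5, 6 and 6 higher and 2, 2 and 3 lower. Vipr2, the receptor of vasoactive intestinal peptide, was 6.20, 6.98 and 6.26 higher, Ramp1 2.12, 2.35 and 3.35, the prostacyclin receptor Ptgir 2.31, 4.15 and 6.82, Ltb4r1 2.34, 3.40 and 6.79, and the cysteinyl leukotriene receptor Cysltr1 1.71, 3.39 and 6.34 (edgeR adjusted p at most 0.0035 in each). The medians of the list were 1.08, 1.48 and 4.46.

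Among 17 transcription factors tested, Bhlhe40 (1.24, 1.71 and 1.12 higher), Gfi1 (1.65, 2.07 and 1.48) and Pparg (1.78, 2.44 and 2.33) were higher against all 3 sets. Id2 was higher than in the CD4 T sets (1.54 and 1.73) and did not pass the test against NK cells (0.35, edgeR adjusted p = 0.067) unless the 11 barcodes were left out (0.60, edgeR adjusted p = 0.0037). Bcl11b, a factor of T cell and ILC2 identity, was 4.02 higher than in NK cells and did not differ past the test from the CD4 T sets, but without the 11 barcodes it was higher than in type 2 gated CD4 T cells (0.77, edgeR adjusted p = 0.011). Klf2 (−1.91, −2.68 and −2.99), Tcf7 (−1.96, −3.08 and −1.39) and Runx3 (−0.65, −0.75 and −1.67) were lower against all 3, though Runx3 did not pass against type 2 gated CD4 T cells without the 11 barcodes (−0.44, edgeR adjusted p = 0.12). The list had 4, 4 and 5 called higher and 5, 4 and 3 lower, with medians of 0.05, 0.20 and 0.35, and without the 11 barcodes 6, 6 and 7 higher and 3 lower against each set.

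Among 11 secreted factors outside the gate, 6 were higher against each set and 3, 4 and 1 lower. Beside Csf2, Csf1 (3.07, 3.58 and 4.31), Ltb (1.07, 0.87 and 2.79), Tnf (1.47, 1.09 and 1.28) and Tnfsf11 (1.51, 2.18 and 6.26) were higher in all 3 comparisons. Medians were 1.07, 0.87 and 2.79. Of 6 chemokines 3, 3 and 2 were higher and 2, 2 and 4 lower. Ccl5 was lower against all sets (−1.54, −3.53 and −7.29), the first of which did not pass without the 11 barcodes (−1.30, edgeR adjusted p = 0.072), and Cxcl2 higher (2.52, 3.93 and 3.51). Cxcl2 was at 351, 1036, 1405 and 693 CPM in ILC2 and at 278, 142, 277 and 132 CPM in B cells. The part of free RNA in its level was not tested. Ccl3 was higher than in the CD4 T sets only with the 11 barcodes, since its difference went from 2.50 and 2.93 to −1.97 and −1.40 without them. The chemokine medians were 0.52, 0.64 and −5.35, and −1.63, −1.83 and −7.26 without the 11 barcodes.

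Surface and homing genes differed in both directions. Of 20 surface and costimulatory genes tested 7, 8 and 13 were higher and 6, 3 and 4 lower (7, 5 and 5 lower without the 11 barcodes; medians 0.34, 0.42 and 1.70). Kit, the stem cell factor receptor, was 4.90, 5.96 and 1.98 higher, Cd81 2.08, 2.65 and 3.50, Icosl 2.37, 3.01 and 3.09, the inhibitory receptor Cd200r1 1.05, 2.54 and 2.62, Klrg1 0.91, 3.73 and 1.01 and Cd69 1.36, 1.26 and 1.42. Ctla4 (−2.88 and −1.82) and Tnfrsf4 (−4.27 and −1.97) were lower than in the CD4 T sets, of which the type 2 gated set also held Foxp3. Of 17 homing genes 3, 3 and 8 were higher and 9, 7 and 8 lower (medians −0.43, −0.38 and −0.73). Ccr8 (3.09, 3.57 and 6.54), Cxcr6 (1.54, 1.78 and 4.82) and Ccr2 (1.68, 2.57 and 0.86) were higher in all 3. The egress receptors S1pr1 (−4.42, −4.47 and −1.66) and S1pr4 (−2.53, −2.61 and −1.63) were lower in all 3, and the lymph node homing receptor Ccr7 lower than in the CD4 T sets (−4.38 and −4.57).

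Signal feedback genes were called higher more often than lower, and cell cycle genes only lower. Of 18 NF-κB and cytokine feedback genes 9 were higher against each set and 4, 4 and 1 lower (medians 0.48, 0.69 and 0.76). Nfkbiz was 1.75, 2.69 and 2.03 higher, Nfkbid 2.09, 2.68 and 2.15, Tnfaip3 (A20) 1.38, 1.68 and 1.67, the STAT5 target Cish 1.35, 2.51 and 4.48, and the survival factor Bcl2 2.69, 1.60 and 0.58. Socs3 was lower (−1.96, −2.52 and −2.55). Of 18 immediate early and stress genes 9, 10 and 7 were higher, among them Fosb (2.50, 2.74 and 3.02), Nr4a1 (1.90, 1.97 and 1.82) and Junb (1.33, 1.45 and 1.45), and 1, 3 and 4 lower, among them Hsp90aa1 (−0.75, −1.11 and −1.31), with medians of 0.56, 0.59 and 0.23. Of 19 cell cycle genes none was higher and 16, 16 and 3 were lower (18, 19 and 6 without the 11 barcodes; medians −2.12, −1.85 and −0.48), with Mcm6 (−2.40, −2.03 and −1.91), Stmn1 (−2.15, −1.82 and −1.33) and Hmgb2 (−1.86, −1.82 and −1.03) lower against all 3. Of 7 interferon-stimulated genes tested 4, 4 and 2 were lower, including Zbp1 (−1.54, −1.78 and −1.27) and Irf7, and none higher (medians −0.99, −1.11 and −0.10). Of 19 metabolism genes 4, 5 and 6 were higher and 2, 1 and 1 lower (5, 3 and 3 lower without the 11 barcodes; medians 0.15, 0.40 and 0.63), with Slc7a8 and the triglyceride synthesis enzyme Dgat2 (1.28, 1.92 and 2.37) higher in all 3. None of the 4 tested genes of Ift20 and its partners passed the test against any set with all barcodes (Ift20 0.79, 0.61 and −0.40, edgeR adjusted p = 0.10, 0.19 and 0.44), with medians of 0.00, −0.22 and −0.06. Without the 11 barcodes Ift20 passed against type 2 gated CD4 T cells (0.93, edgeR adjusted p = 0.049).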

How the data were processed

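Single-cell RNA libraries (10x 3′ v3 chemistry) of sorted lung CD45.2-positive cells were used, 1 library in each of the 4 groups, with groups taken from the labels. The authors aligned reads to mm10 and counted UMIs with Cell Ranger (software version 3.1.0 in the matrix headers), and deposited raw UMI counts per gene and barcode for 31053 genes. Cell calling and doublet removal before deposit were not given in the sources used here. Free RNA is counted with cells, so shares of cells with a UMI are given beside those of B cells.

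Barcodes with more than 200 genes and under 15% mitochondrial UMIs were kept, the filter of the study's methods, and gated on raw UMIs. The members and gene lists were chosen with earlier results of these data known. UMIs were summed over gated cells per library, and CPM and log2 ratios carry exact Poisson and exact conditional 95% intervals. PCR duplicates are removed by UMIs, but intervals cover counting error only. Shares carry exact binomial (Clopper-Pearson) intervals, and thinned shares used cells of at least 2000 UMIs (0 to 4 ILC2 of a library left out). A gene was measured between 2 libraries when they held at least 50 UMIs together, and was counted past the fold at 2-fold.

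Cell sets were compared with edgeR 4.0.16 (glmQLFit, TMM, filterByExpr, R 4.3.3) on sums per library, with the library as a block and Benjamini-Hochberg adjustment over all genes at an FDR of 0.05. The B, T and NK sets were gated on Cd79a, Cd4 with Cd3e or Cd3d, and Ncr1. The scripts were tested on simulated counts. Python 3.11.15 and scipy 1.17.1 were used.

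Named genes were those of the gate; between libraries, up to 8 higher and 8 lower by the interval bound nearest 0, among genes past 2-fold of which 1 cell held at most 25% of the UMIs; against the other sets, the 20 higher (19 given) and 10 lower against all 3 and in each library with the largest of the smallest differences; and examples from the lists. A named gene, list members and a criterion of the effector CD4 T set are not reported here. Predicted genes, ribosomal, mitochondrial and receptor or immunoglobulin segment genes were not named. Lif, Ctla4, Tnfrsf4, Itgal, Cd44 and other list members were chosen as examples after their values were seen. Alternatives (gate, doublets, normalization, minimum UMIs, DESeq2 1.42.0 and sets of libraries) are reported at the end. Promoter sequences came from RefSeq (GRCm38.p6), where the Arg1 promoter was not used here.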

Additional observations from a re-analysis of the deposited data

Results flagged for a closer look

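There were 7 genes of ILC2 that differed by 2-fold or more between KO and WT in opposite directions in DPBS and papain. With 1 library in each group the difference was not tested. For the macrophage genes Chil3 (1.88 in DPBS and −6.09 in papain, log2 of KO to WT), Ear2 (2.55 and −3.62) and Lyz2 (1.44 and −3.44), the UMIs lay mostly in the 11 barcodes rich in myeloid UMIs, and without those the ratios were 0.67 and −0.59, 1.29 and 0.71, and −0.75 and −0.03. The chemokine gene Cxcl2 had 1.56 and −1.02 (1.19 and −0.40 without them), Runx1 1.12 and −1.05 (0.08 and −0.56) and Txn1 1.05 and −1.04 (0.82 and −0.82). Klf2 had −1.08 and 2.0 (−0.13 and 2.31 without them), with 71 of 166 Papain KO UMIs in 1 cell.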

How the results depend on the processing

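The log2 ratios between libraries of the share of ILC2 stayed within their counting intervals in all 36 comparisons with an alternative, though KO against WT in DPBS, whose interval held 0, ran from −0.13 to 0.21. The gene counts between libraries did not. KO against WT in DPBS had 80 genes past 2-fold, and 34 with at least 3 effector genes, 160 with at least 1, 15 with no UMI of 8 further lineage genes (which leaves 13, 10, 15 and 19 cells), 52 without Scrublet doublets, 29 without the 11 barcodes rich in myeloid UMIs, 24 at a minimum of 100 UMIs and 4561 at 1 UMI. KO against WT in papain had 197, and 333 with at least 1 effector gene, 38 with the 8 genes, 92 without the 11 barcodes, 78 at 100 UMIs and 4799 at 1 UMI. Papain against DPBS in WT had 149, and 24, 92, 50 and 4355 under the last 4 of these. Papain against DPBS in KO had 104, and 44 with at least 3 effector genes, 228 with at least 1, 31 with the 8 genes, 50 with an Il7r UMI required, 66 without Scrublet doublets, 31 without the 11 barcodes, 41 at 100 UMIs, 4876 at 1 UMI and 68 from the mean over cells. These settings leave fewer or more cells or genes, and the cause of the changes in the counts was not tested.

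Between cell sets, edgeR called 1555 genes against type 2 gated CD4 T, 1526 against other effector CD4 T and 1541 against NK cells. Leaving out 1 library gave 967 (without Papain KO) to 1438, 948 (without DPBS WT) to 1351, and 1104 to 1370. The cell sets were paired by library, which stood as a block in the fit, and without this block the counts were 1426, 1397 and 1458. The other alternatives between cell sets changed no count by over 1.5 times.

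Of the genes named, most kept their direction. With no UMI of 8 further lineage genes, KO relative to WT in DPBS was (log2) 0.37 for Cdc42ep3, 1.17 for Dnajb1, −0.37 for Il5 and 1.21 for Klf2, and that in papain −0.39 for Icos and 1.50 for Il13. Papain against DPBS in WT was then −1.77 for Csf2, −0.27 for Il1rl1, −3.435 for Il5 and −0.85 for Plk3, and in KO −0.91 for Areg, −0.0897 for Arg1, 0.55 for Capg, 0.68 for Ddx17, −0.48 for Il13 and −0.0611 for Plac8. Without the 11 barcodes Cd44 was −0.0166 in KO against WT in DPBS. Without the cell with most UMIs Il5 was −0.36 in KO against WT in papain. With Cd79a UMIs allowed (an alternative chosen after seeing the data, as was leaving out the 11 barcodes) Il13 was −1.11 and Il5 −0.0657 in KO against WT in DPBS, and Il5 −0.63 in papain against DPBS in WT. TMM scaling moved the ratios by up to 0.12, in papain against DPBS in KO.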
